A study of Mus musculus with 35 samples.

Results

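Chemokine ligands are small secreted proteins that draw leukocytes into tissue through receptors on the cell surface, and 47 of the 36106 rows of the count table belong to them. They were chosen by symbol alone, as the rows whose name starts with Ccl, Cxcl, Cx3cl or Xcl followed by a number. These rows carry 42 symbols, and 4 symbols (Ccl19, Ccl21a, Ccl21b and Ccl27) stand in 9 rows because near-identical copies of the gene have identifiers of their own. Of the 47 rows, 36 reached 1 CPM (counts scaled to a common library size) in at least 1 library and 11 did not.

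RNA had been sequenced from 35 skin biopsies, taken from 19 female mice of the inbred strain C57BL/6J that were treated at 10 weeks of age. The 4 radiated groups (4 samples each, at weeks 1, 2, 3 and 4) were flank skin that had received 25 Gy and was shaved afterwards. The 4 control groups (4 samples each, at the same weeks) carry the same replicate numbers as the radiated ones, and the protocol does not say from which body site they were taken. The sham group (3 samples) came from mice without radiation and has no week in the labels. Since the samples outnumber the mice, radiated and control skin that share a week and a number were taken as a pair from 1 mouse, which the labels do not state. The main tests compared the groups without this pairing, and tests within pairs were run as an alternative. A week after radiation is thus also an age, and each time point holds other mice.

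The family divides by receptor. Ligands of Cxcr2 with the letters ELR before their first cysteines recruit neutrophils, ligands of Ccr2 recruit inflammatory monocytes, and ligands of Ccr1 act on macrophages, monocytes and T cells. Ccl27 is made by keratinocytes, is held in the epidermis and attracts skin-homing T cells that carry Ccr10. Cxcl12 and Cxcl13 are made mainly by stromal cells, and Cxcl13 guides B cells through Cxcr5.

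Promoter windows are shown for 3 Cxcr2 ligands of 1 cluster that rose in radiated skin and for the 2 Ccl27 copies that fell, whose likeness bears on how their reads are counted. All windows are the 250 bases before a RefSeq start site, on the gene's strand, in build GRCm38.p6. RefSeq windows were matched by symbol for 27 members, and Cxcl5, the remaining Cxcr2 ligand, had none. The Cxcr2 ligands Cxcl1 (chr5:90890995-90891244, plus strand), Cxcl2 (chr5:90903649-90903898, plus strand) and Cxcl3 (chr5:90785851-90786100, plus strand) lie in 1 cluster, and capitals mark matches to GGNNTTTCC, a form of the site bound by NF-kappaB, a factor that switches on inflammatory genes, on either strand.
Cxcl1: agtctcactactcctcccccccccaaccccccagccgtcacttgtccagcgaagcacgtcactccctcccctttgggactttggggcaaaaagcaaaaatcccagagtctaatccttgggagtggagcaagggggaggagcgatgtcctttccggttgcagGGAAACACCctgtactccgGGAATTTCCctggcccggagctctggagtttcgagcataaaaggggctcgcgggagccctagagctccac
Cxcl2: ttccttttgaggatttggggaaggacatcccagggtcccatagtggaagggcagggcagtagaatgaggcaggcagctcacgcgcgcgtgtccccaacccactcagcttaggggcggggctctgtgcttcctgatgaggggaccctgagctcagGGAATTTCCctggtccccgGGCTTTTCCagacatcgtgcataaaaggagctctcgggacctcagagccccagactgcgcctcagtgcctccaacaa
Cxcl3: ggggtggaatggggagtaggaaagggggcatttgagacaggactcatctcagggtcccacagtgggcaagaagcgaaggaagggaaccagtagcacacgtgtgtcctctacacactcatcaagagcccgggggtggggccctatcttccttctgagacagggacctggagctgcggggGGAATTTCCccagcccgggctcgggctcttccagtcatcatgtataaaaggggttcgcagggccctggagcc

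In the full RefSeq windows of 300 bases, which also hold the 50 bases after the start, Cxcl1 and Cxcl2 each had 2 matches and Cxcl3 had 1. The matches lay at bases -89 and -70 of Cxcl1, -96 and -77 of Cxcl2 and -72 of Cxcl3, counted to the first base of the match from the start site. The window of Cxcl15, which lies between Cxcl3 and Cxcl1 on the chromosome, held no match. Of the 27 members with a window, 7 held the motif at their first start site (Cxcl1, Cxcl2, Cxcl3, Cxcl9, Cxcl10, Ccl9 and Ccl20), against 5.82% of 32851 mouse promoter windows of this length and 6.62% of 27025 genes in any of their windows. Of the same 27, 6 held TTCNNTTTC, a form of the interferon-stimulated response element (8.56% of windows and 9.76% of genes), and 8 held the TATA box letters TATAAA (13.6% and 15.7%). The motifs were chosen with the expression results known, and a match is only a string of letters.

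The skin-homing ligands Ccl27a and Ccl27b are near-copies on chromosome 4. RefSeq gives several start sites for each, and the windows that match best are those before the start site listed as number 3 of Ccl27a (chr4:41770213-41770462, minus strand) and number 4 of Ccl27b (chr4:42655001-42655250, plus strand), and capitals mark where the copies differ.
Ccl27a: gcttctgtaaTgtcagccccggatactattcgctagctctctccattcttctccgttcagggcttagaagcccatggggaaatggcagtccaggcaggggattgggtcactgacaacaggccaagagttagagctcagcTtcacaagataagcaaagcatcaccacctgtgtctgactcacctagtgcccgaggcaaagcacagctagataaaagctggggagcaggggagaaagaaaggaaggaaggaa
Ccl27b: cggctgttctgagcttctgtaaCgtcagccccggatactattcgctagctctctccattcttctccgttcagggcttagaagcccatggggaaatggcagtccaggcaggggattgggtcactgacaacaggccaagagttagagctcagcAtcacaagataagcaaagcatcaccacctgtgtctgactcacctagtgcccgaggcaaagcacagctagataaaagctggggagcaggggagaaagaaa

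Laid with the Ccl27b window 12 bases on, 236 of 238 bases were alike (99.2%). The 2 differences were T11C and T140A, with Ccl27a first and positions counted from 1 at the 5′ end of its window. None of the 3 RefSeq windows of Ccl27a or the 4 of Ccl27b held GGNNTTTCC. The copies are alike in their transcripts too: 302 of the 395 stretches of 31 bases in the Ccl27b transcript (76.5%) also occur in transcripts of Ccl27a. Reads from such stretches are divided between copies by an estimate, so the level of each copy is less certain than their sum.

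Each library held 17362853 to 28487885 estimated counts. Markers of other tissue moved with the groups: skeletal muscle genes (5 listed) summed to 879 to 19330 CPM in radiated skin and 1132 to 43160 CPM in control skin over the 4 weeks, and 4 of 5 were lower in radiated skin at week 3 and at week 4. Genes of the growing hair follicle (5 listed) summed to 2054 to 32880 CPM in sham skin and to 20.7 to 32.4 CPM in control skin of week 4. All 5 were called higher in radiated than in control skin at week 4, where radiated replicates 1 to 4 summed to 249.7, 18.9, 5705 and 66.1 CPM. Replicate 2 was below every control library of that week and replicate 3 was far above the rest. The part of these tissues in the results below was not tested. In biopsies of whole tissue, a lower level of a ligand can come from fewer cells that make it or from less RNA in each cell, and these cannot be told apart.

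In radiated against control skin, no ligand passed the test at weeks 1 and 2, 16 passed at week 3 and 20 at week 4. A gene is called here when its p-value from edgeR's quasi-likelihood test, adjusted over all genes tested (Benjamini-Hochberg), is under 0.05. At week 3, 13 of the 30 ligands tested were higher and 3 lower, where 27.2% of all 17653 genes tested were called, 13.6% higher and 13.6% lower. At week 4, 17 of 31 were higher and 3 lower, where 48.4% of 17850 genes were called, 24.2% higher and 24.2% lower. These shares of all genes also apply to the counts of markers called in radiated against control skin of weeks 3 and 4. The median log2 fold change of the ligands tested was 0.20, 0.51, 1.01 and 1.23 at weeks 1 to 4, beside 0.05, -0.0025, 0.08 and 0.02 over all genes tested. The ligands tested differ between weeks, since Ccl3, Ccl4 and Ccl12 had enough counts only in the comparisons of weeks 3 and 4, Cxcl2 had too few at week 2 and Cxcl15 at week 3, so these medians and counts describe those ligands and not the whole family. Ccl3 and Ccl4 at both later weeks, Cxcl2 at week 3 and Ccl12 at week 4 passed the filter on low counts through their radiated libraries alone, which set their direction in these counts. The same held against sham skin for Ccl3, Ccl4 and Cxcl2 at weeks 3 and 4.

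**Figure D1:**
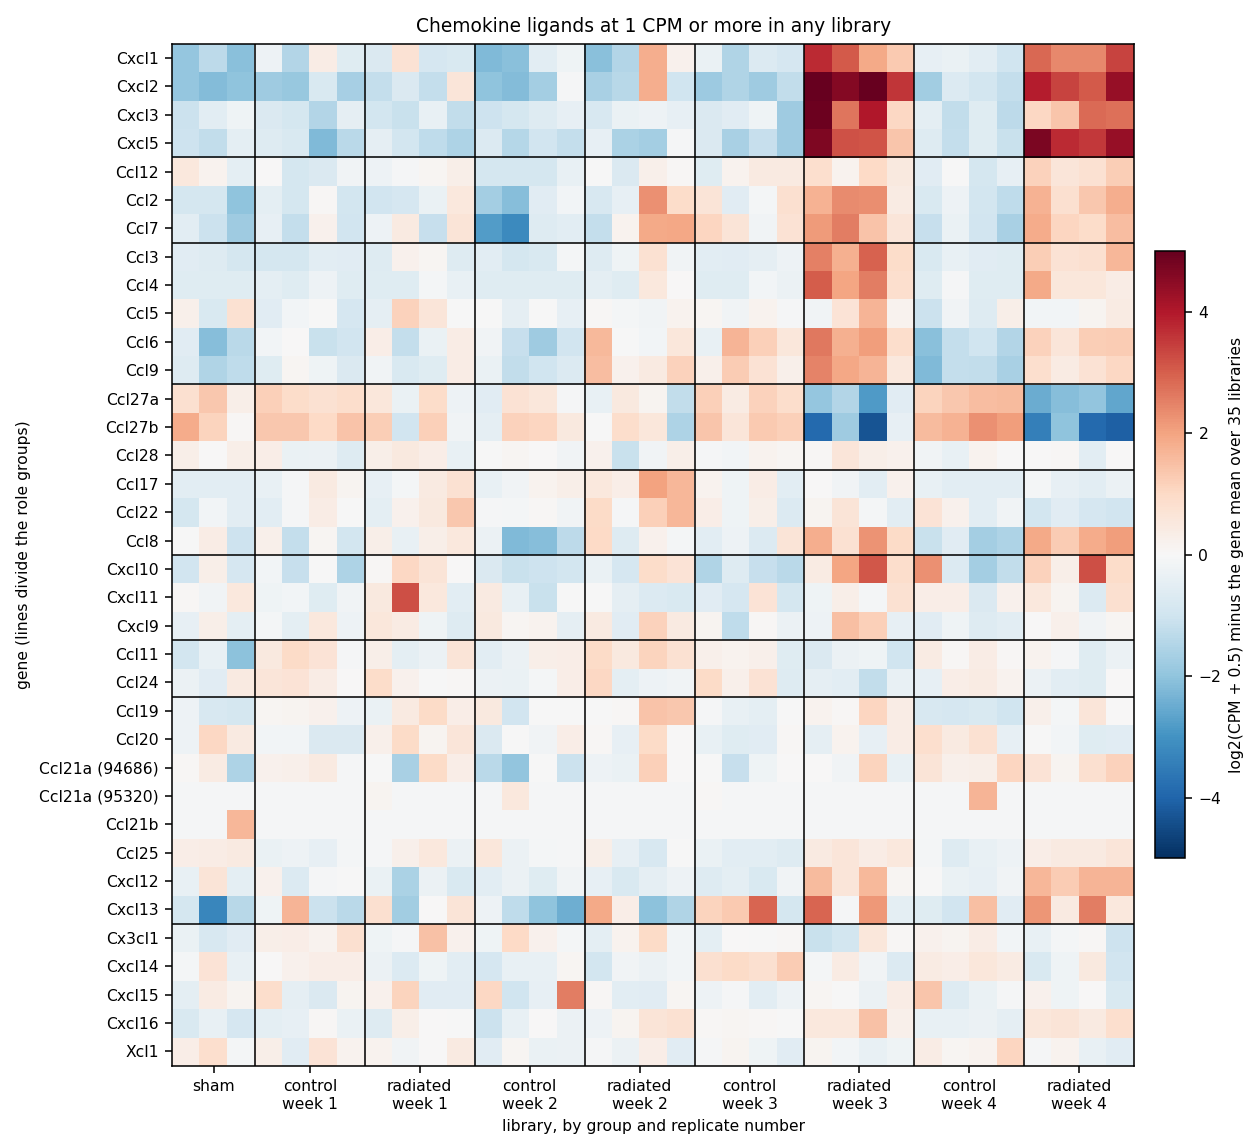
Levels of the 36 ligands that reached 1 CPM (rows, divided by role) in the 35 libraries (columns, by group and replicate number). Colour is log2(CPM + 0.5) minus the mean of that gene over all libraries, so red is above and blue below the gene's own mean. The Cxcr2 ligands in the top 4 rows are red in the radiated libraries of weeks 3 and 4, where Ccl27a and Ccl27b are blue.

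Weeks 1 and 2 each ended with 0 ligands called. At week 1, 6 of 28 ligands had an unadjusted p under 0.05, and 0.0% of the genes tested were called. DESeq2 called 1 ligand, Cxcl14, lower in radiated skin (log2 fold change -0.66, adjusted p = 0.00514), where it called 2.41% of all genes. At week 2, 10 of 27 ligands had an unadjusted p under 0.05, where 0.00577% of all genes tested (1 gene) were called. DESeq2 called 5 ligands, Ccl6, Ccl9, Ccl11, Ccl22 and Cxcl10, and 4.23% of all genes. Comparing the 2 samples of each pair with one another gave 7 ligands in edgeR, with 3.7% of all genes called in that fit. All 7 were higher in radiated skin: Ccl8, Cxcl16, Ccl6, Ccl9, Ccl7, Ccl2 and Ccl21a.

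Against control skin, the 4 ligands of Cxcr2 were called only at the later weeks. None of these neutrophil attractants was called at week 1 or, among the 3 tested, at week 2. All 4 were called higher at weeks 3 and 4. Cxcl2, also known as MIP-2, stood at 106, 52.6, 81.8 and 26.0 CPM in radiated skin at week 3 (replicates 1 to 4) and at 0.135, 0.286, 0.139 and 0.457 CPM in control skin. At week 4 the values were 32.9, 22.8, 18.0 and 44.8 CPM in radiated and 0.159, 0.885, 0.684 and 0.462 CPM in control skin. The groups did not overlap at either week, and even the lowest radiated library lay far above the highest control library.

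Before week 3 Cxcl2 was at 0.470, 0.858, 0.479 and 2.84 CPM in radiated skin of week 1 and at 0.221, 0.349, 7.41 and 0.5996 CPM at week 2, where replicate 3 stood above the rest. Control skin had 0.140, 0.0950, 0.813 and 0.210 CPM at week 1 and 0.0475, 0, 0.175 and 1.62 CPM at week 2. The groups overlapped at both weeks. Sham skin had 0.0884, 0 and 0.0515 CPM, which is 3 counts in all. All radiated libraries of weeks 1 and 2 lay above these sham libraries, and the difference from sham skin was not called at week 1.

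The log2 fold change of Cxcl2 against control skin was 8.07 ± 0.59 (SE, adjusted p = 0.000506) at week 3 and 5.73 ± 0.43 (SE, adjusted p = 7.97e-06) at week 4, with 4 samples in each group. It was 1.89 ± 0.80 (SE, adjusted p = 0.326) at week 1, and at week 2 Cxcl2 had too few counts to be tested. Of the 31-base stretches in Cxcl2 transcripts, 7.59% also occur in Cxcl3, so a small part of the counts of each could belong to the other.

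Cxcl5, called LIX in the mouse and made by epithelial cells, started from a measurable level. Sham skin held 4.33, 3.82 and 6.70 CPM. Radiated skin held 6.88, 4.78, 3.66 and 2.97 CPM at week 1 and 7.07, 2.85, 2.58 and 8.99 CPM at week 2. Control skin held 5.82, 5.37, 1.67 and 3.41 CPM and 5.80, 3.27, 4.68 and 3.86 CPM at those weeks. None of these groups stood apart from the others.

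At week 3 Cxcl5 reached 256, 89.5, 87.2 and 25.3 CPM in radiated skin against 5.53, 2.78, 4.04 and 2.40 CPM in control skin. At week 4 it was at 263, 133, 116 and 206 CPM against 5.83, 3.85, 6.03 and 4.08 CPM. Replicate 1 was the highest radiated library at both weeks, though these are different mice. The log2 fold changes were 4.99 ± 0.68 (SE, adjusted p = 0.00175) and 5.20 ± 0.31 (SE, adjusted p = 3.24e-06).

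Cxcl1 and Cxcl3 are the remaining Cxcr2 ligands. Before week 3, Cxcl1 was at 2.26 to 7.56 CPM in radiated skin of week 1 and at 0.663 to 16.8 CPM at week 2, where replicate 3 was above the lowest radiated library of week 3 (11.8 CPM). Control skin had 1.28 to 5.83 CPM and 0.570 to 3.70 CPM at those weeks. Sham skin had 0.670 to 1.52 CPM of Cxcl1, below all radiated libraries of week 1, and this difference was not called. Cxcl1 had group means of 33.9 and 34.6 CPM in radiated skin at weeks 3 and 4 and of 2.38 and 2.88 CPM in control skin, with log2 fold changes of 3.87 ± 0.57 (SE, adjusted p = 0.00224) and 3.60 ± 0.27 (SE, adjusted p = 7.95e-06). Cxcl3 ranged from 3.40 to 55.2 CPM in radiated skin at week 3 and from 3.33 to 12.8 CPM at week 4. In control skin Cxcl3 was at 0.0571 to 1.11 CPM and 0.270 to 0.849 CPM. Its log2 fold changes were 5.27 ± 0.93 (SE, adjusted p = 0.00410) and 3.96 ± 0.57 (SE, adjusted p = 0.000331). For each of the 4 Cxcr2 ligands the radiated sample was above the control sample in 4 of 4 pairs at week 3 and at week 4.

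**Figure D2:**
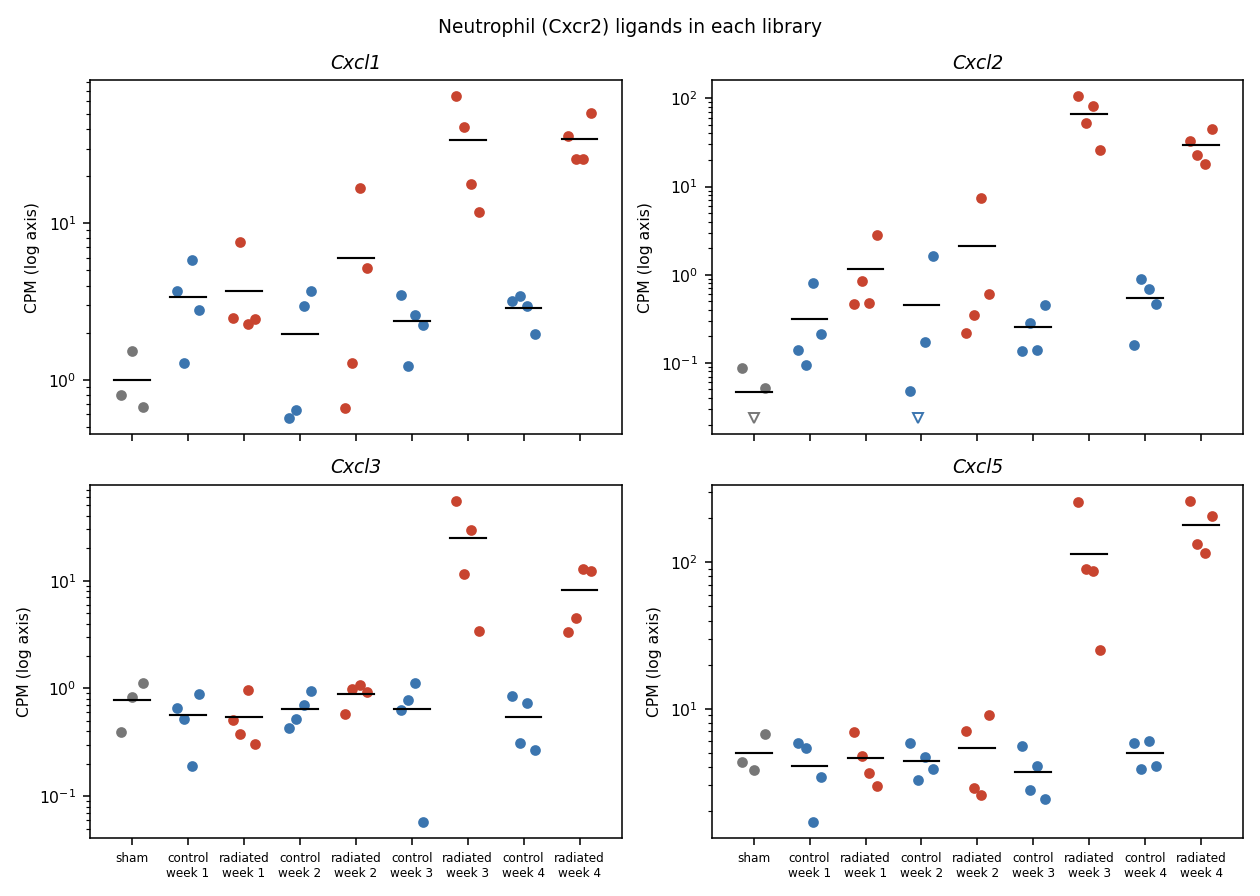
CPM (log axis) of Cxcl1, Cxcl2, Cxcl3 and Cxcl5 in each library, with a line at the group mean; grey is sham, blue control and red radiated skin, and open triangles are libraries with no count, drawn below the lowest value above 0. For all 4 genes the radiated libraries of weeks 3 and 4 lie above all control libraries of the same week, and for Cxcl2 the radiated libraries of week 3 lie at 26.0 CPM or more.

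Neutrophil markers moved with the Cxcr2 ligands. The list of 8 markers summed to 102 to 748 CPM in radiated skin of week 3 and 206.5 to 438 CPM at week 4, against 9.94 to 16.9 CPM and 11.8 to 16.1 CPM in control skin. Of the 6 markers tested, 5 were called higher at both weeks (S100a8, S100a9, Retnlg, Csf3r and Cxcr2). The shares of all genes called higher were 13.6% and 24.2%. Only 3 of the 8 markers had enough counts for the test at week 1 and 4 at week 2. Some may thus have passed the filter at the later weeks through their radiated libraries alone, which would set their direction. This was not examined. Ly6g was at 0 in all sham libraries, in all control libraries of weeks 1, 2 and 4 and in all radiated libraries of week 2. It ran from 0 to 8.30 CPM in radiated skin of week 3. Cxcr2, the receptor of these ligands, averaged 79.3 CPM in the radiated and 7.98 CPM in the control libraries of week 3 (log2 fold change 3.35 ± 0.49, SE, adjusted p = 0.00217). What part neutrophils had in the ligand levels was not tested.

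Of the 3 monocyte ligands, 2 were called higher at week 3 and all 3 at week 4, where 13.6% and 24.2% of all genes were called higher. Ccl2, or MCP-1, is the main ligand of Ccr2. It was at 1.37, 1.39 and 0.361 CPM in sham skin. In radiated skin it was at 1.28, 1.45, 2.26 and 4.498 CPM at week 1 and 1.503, 2.10, 16.4 and 6.11 CPM at week 2, against 2.00, 1.38, 3.16 and 1.34 CPM and 0.570, 0.301, 1.83 and 2.71 CPM in control skin. The groups overlapped at both of these weeks, with 2 high radiated libraries at week 2.

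At week 3 Ccl2 was at 11.2, 17.6, 17.1 and 4.09 CPM in radiated and 4.99, 1.84, 2.79 and 5.54 CPM in control skin. At week 4 it was at 11.0, 5.62, 8.37 and 11.9 CPM against 1.54, 2.39, 1.37 and 0.963 CPM. Replicate 4 of week 3 was within the control range, and at week 4 the groups were apart. This was a log2 difference of 1.76 ± 0.49 (SE, adjusted p = 0.0260) at week 3 and 2.57 ± 0.32 (SE, adjusted p = 0.000148) at week 4. The call of week 3 ended within pairs (adjusted p = 0.0966) and without any 1 of 4 libraries (radiated replicates 2 and 3, control replicates 2 and 3), where the adjusted p was 0.0577 to 0.0710.

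Ccl7, or MCP-3, is another ligand of Ccr2. Sham skin had 5.30, 3.47 and 1.96 CPM. Radiated skin had 6.58, 11.1, 3.31 and 12.8 CPM at week 1 and 3.18, 9.02, 30.9 and 31.3 CPM at week 2. Control skin had 5.82, 3.18, 9.18 and 3.83 CPM and 0.713, 0.430, 4.89 and 5.37 CPM. At week 2 the radiated sample was higher in 4 of 4 pairs although the groups overlapped, with a log2 difference of 2.71 ± 0.89 (SE, adjusted p = 0.225 between groups and 0.00857 within pairs).

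At week 3 Ccl7 was at 36.2, 48.8, 22.4 and 12.4 CPM in radiated and 17.2, 12.7, 7.02 and 13.4 CPM in control skin, and the groups overlapped. At week 4 they were apart, at 30.4, 17.4, 15.4 and 23.9 CPM against 3.29, 6.28, 3.89 and 2.27 CPM. The log2 fold changes were 1.28 ± 0.41 (SE, adjusted p = 0.0442) and 2.48 ± 0.32 (SE, adjusted p = 0.000187). The week 3 call of Ccl7 ended within pairs (adjusted p = 0.0546), without any 1 library except radiated replicate 4, and in 1 fit of all 35 libraries (adjusted p = 0.115). Ccl12, or MCP-5, had a mean of 1.26 CPM in radiated and 0.174 CPM in control skin at week 4 (log2 fold change 2.81 ± 0.62, SE, adjusted p = 0.00427), and was not called at week 3.

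The Ccr1 ligands Ccl6 and Ccl9, which mouse macrophages and other myeloid cells make, had radiated libraries above all control libraries already at week 2. Ccl9 was at 26.2, 14.0 and 16.7 CPM in sham skin. It was at 36.0, 23.6, 26.9 and 52.4 CPM in radiated skin at week 1 and 119, 47.2, 56.5 and 92.0 CPM at week 2. Control skin had 26.6, 44.3, 34.8 and 24.3 CPM and 32.6, 17.3, 20.5 and 25.0 CPM. At week 2 the groups did not overlap, with a difference of 1.72 ± 0.31 (SE, adjusted p = 0.118 between groups and 0.00490 within pairs) on the log2 scale. Without radiated replicate 2 of that week, the adjusted p between groups was 0.0272. It was 8.03e-05 by DESeq2 and 0.00710 in 1 fit of all 35 libraries.

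At week 3 Ccl9 was at 234, 160, 133 and 59.3 CPM in radiated skin, and control skin was at 48.9, 99.2, 68.6 and 48.4 CPM. The groups overlapped and Ccl9 missed the threshold (log2 fold change 1.17 ± 0.39, SE, adjusted p = 0.0505). Without control replicate 2 the adjusted p was 0.0417 and without radiated replicate 4 it was 0.00766. DESeq2 called it (adjusted p = 0.0145), as did edgeR with total-count scaling (adjusted p = 0.0197). At week 4 radiated skin had 72.8, 54.9, 68.5 and 84.5 CPM and control skin 8.48, 17.4, 17.2 and 13.1 CPM, with a log2 difference of 2.33 ± 0.23 (SE, adjusted p = 3.30e-05).

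Ccl6 is the other of these Ccr1 ligands. Sham skin had 56.4, 18.7 and 32.5 CPM. Radiated skin had 106, 36.0, 66.4 and 106 CPM at week 1, 254, 82.5, 76.3 and 122 CPM at week 2, 515, 289, 355 and 152 CPM at week 3 and 186, 127, 195 and 202 CPM at week 4. Control skin had 75.4, 84.4, 38.4 and 42.1 CPM, then 72.9, 37.4, 23.8 and 43.0 CPM, then 63.7, 272, 188 and 122 CPM, then 19.2, 36.3, 40.8 and 30.0 CPM. Control skin of week 3 overlapped with radiated skin through replicates 2 and 3, and at weeks 2 and 4 the groups were apart.

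For Ccl6 the log2 fold change came to 1.60 ± 0.43 (SE, adjusted p = 0.167 between groups and 0.00524 within pairs) at week 2. It was 1.05 ± 0.46 (SE, adjusted p = 0.119) at week 3 and 2.50 ± 0.23 (SE, adjusted p = 2.66e-05) at week 4. Monocyte and macrophage markers were also higher in radiated than in control skin. The 8 markers summed to 996 to 2424 CPM in radiated and 339 to 1020 CPM in control skin at week 3, and to 1196 to 1587 CPM against 190 to 311 CPM at week 4. At week 2 the sums were 419 to 1836 CPM against 156 to 423 CPM, and none of the 8 was called. None of the 8 was at 0 in any group. At week 3, 5 of 8 were called higher (13.6% of all genes) and at week 4, 8 of 8 (24.2% of all genes). Their part in these levels was not tested.

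**Figure D3:**
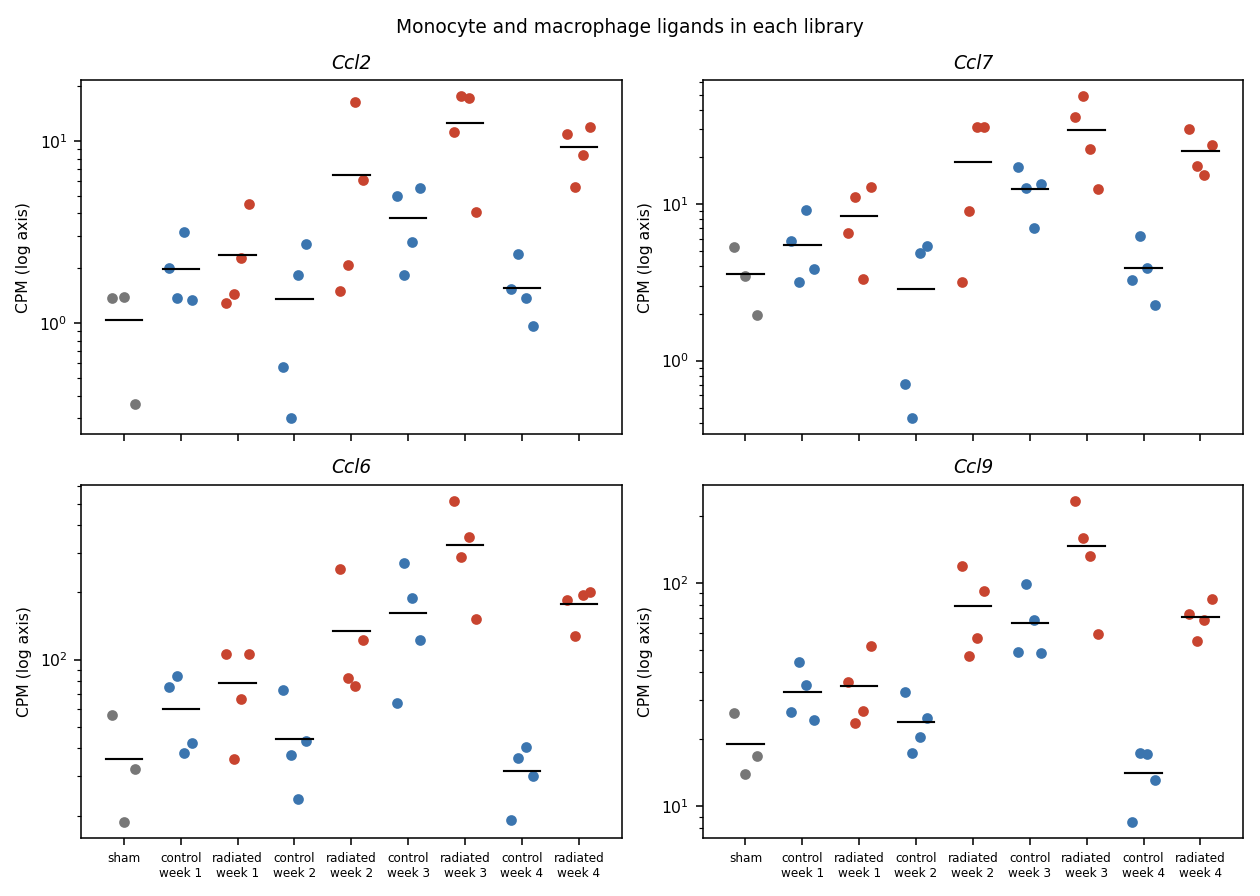
CPM (log axis) of Ccl2, Ccl7, Ccl6 and Ccl9 in each library, with a line at the group mean; grey is sham, blue control and red radiated skin. The radiated libraries of week 4 lie above all control libraries of that week for all 4 genes, and control skin of week 3 (272 CPM of Ccl6 at the highest) overlaps with radiated skin.

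Ccl3 and Ccl4, known as macrophage inflammatory proteins, stayed at 1.08 CPM (Ccl3) and 0.587 CPM (Ccl4) or less outside radiated skin of weeks 3 and 4. Ccl3 had means of 3.87 and 1.56 CPM there, against 0.182 and 0.130 CPM in control skin, with log2 fold changes of 4.44 ± 0.61 (SE, adjusted p = 0.00178) and 3.52 ± 0.46 (SE, adjusted p = 0.000201). Ccl4 had no count in any sham library and means of 3.25 and 1.02 CPM in radiated skin. Against the 0.0482 CPM that 3 counts over the sham group would give, this was at least 67.5-fold higher at week 3 and at least 21.2-fold higher at week 4. Ccl5, or RANTES, which T cells make, was not called at any week (adjusted p of 0.155 to 0.713).

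The skin-homing ligands moved the other way. Ccl27a and Ccl27b were called lower in radiated skin at weeks 3 and 4, while Ccl28, which mucosal epithelium makes and which binds the same receptor, was not called at any week and differed by a log2 difference of -0.0087 ± 0.21 (SE, adjusted p = 0.977) at week 4. Ccl27a was at 54.7, 80.0 and 38.2 CPM in sham skin. Radiated skin had 46.7, 24.5, 58.8 and 25.9 CPM at week 1 and 24.0, 43.1, 34.5 and 13.0 CPM at week 2. Control skin had 71.4, 58.8, 52.4 and 57.5 CPM and 20.7, 50.9, 45.7 and 29.8 CPM. The groups overlapped at both weeks, and control skin of week 2 had a lower mean (36.8 CPM) than at the other weeks, a difference that was not tested.

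At week 3 Ccl27a was at 7.66, 10.8, 3.96 and 20.7 CPM in radiated and 71.9, 41.6, 69.9 and 57.9 CPM in control skin. At week 4 it was at 5.21, 6.71, 7.54 and 4.77 CPM against 67.3, 78.9, 92.5 and 93.7 CPM. The groups were apart at both weeks, and the radiated sample was the lower one in every pair. In log2 terms the change was -2.46 ± 0.44 (SE, adjusted p = 0.00435) at week 3 and -3.77 ± 0.18 (SE, adjusted p = 1.36e-06) at week 4.

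Ccl27b, the copy with the near-identical window shown above, had 35.5, 21.2 and 9.89 CPM in sham skin. Radiated skin had 22.6, 4.61, 22.5 and 8.21 CPM at week 1 and 9.28, 18.1, 14.3 and 2.89 CPM at week 2, against 25.1, 24.6, 19.4 and 26.4 CPM and 6.75, 21.7, 20.7 and 13.5 CPM in control skin. At week 3 it fell to 0.182, 2.38, 0 and 6.99 CPM in radiated skin, where control skin had 25.9, 14.8, 24.5 and 22.6 CPM. At week 4 radiated skin had 0.427, 1.94, 0.167 and 0.0892 CPM and control skin 29.3, 32.6, 47.8 and 42.5 CPM. Radiated libraries of weeks 3 and 4 thus ran from no count to 6.99 CPM, all below the control libraries of their week.

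The log2 fold change of Ccl27b was -3.19 ± 1.04 (SE, adjusted p = 0.0468) at week 3 and -5.80 ± 0.63 (SE, adjusted p = 6.27e-05) at week 4. The call of week 3 ended within pairs (adjusted p = 0.0507), with DESeq2 (adjusted p = 0.0622), with total-count scaling (adjusted p = 0.0562) and without any 1 of 6 libraries, radiated replicates 1 and 2 and control replicates 1 to 4 (adjusted p of 0.0717 to 0.0978). Summed with Ccl27a and the scaffold copies to 1 row, Ccl27 was lower at week 3 (log2 fold change -2.62 ± 0.51, SE, adjusted p = 0.00618) and week 4 (-4.16 ± 0.21, SE, adjusted p = 1.71e-06). Ccl27b made up 29.2% to 34.1% of the CPM of both copies in control skin at week 4 and 1.84% to 22.4% in radiated skin.

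Keratinocyte markers are given beside Ccl27. The 6 of them summed to 7210 to 30740 CPM in radiated and 19690 to 25350 CPM in control skin at week 3, and to 14740 to 20930 CPM against 25410 to 28710 CPM at week 4. None was at 0. At week 3, 1 of 6 was called higher and 1 lower, so that the 2 called, Trp63 and Krt14, went in opposite directions. At week 4, Krt10, Trp63, Krt14, Dsp and Krt5 were called, 1 higher and 4 lower. Trp63, the basal keratinocyte factor and 1 of the 4 lower at week 4, had a mean of 253 CPM in radiated and 659 CPM in control skin. The median log2 fold change over the keratinocyte list was -0.92 at that week, and the part of these markers' change in Ccl27 was not tested.

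T-cell markers did not fall as a list. Of the 6, 1 was called higher at week 3, and at week 4 Cd4 and Cd28 were higher and Cd3e lower. Their sums were 35.5 to 78.0 CPM in radiated and 27.7 to 59.4 CPM in control skin at week 3, and 53.1 to 70.7 CPM against 34.7 to 37.1 CPM at week 4. Ccr10, the receptor of Ccl27, had a mean of 0.498 CPM in radiated and 0.835 CPM in control skin at week 4 and was not called (log2 fold change -0.71 ± 0.52, SE, adjusted p = 0.290). From week 2 to week 3 the difference of Ccr10 between radiated and control skin became higher, by 2.79 ± 0.86 on the log2 scale (SE, adjusted p = 0.0465, and 0.0609 with the replicate block). Ccr10 had a mean of 0.195 CPM in radiated and 0.807 CPM in control skin at week 2, and 0.598 and 0.361 CPM at week 3. Against sham skin (1.06 CPM) it was lower in radiated skin of week 2 (adjusted p = 0.0497, and 0.0849 with the block, which joins different mice there). Of the 5 markers of dendritic epidermal T cells found in the table, 4 were tested at week 4, with 2 called higher and 2 lower, and their sums were 21.7 to 29.9 CPM in radiated and 25.5 to 27.5 CPM in control skin.

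**Figure D4:**
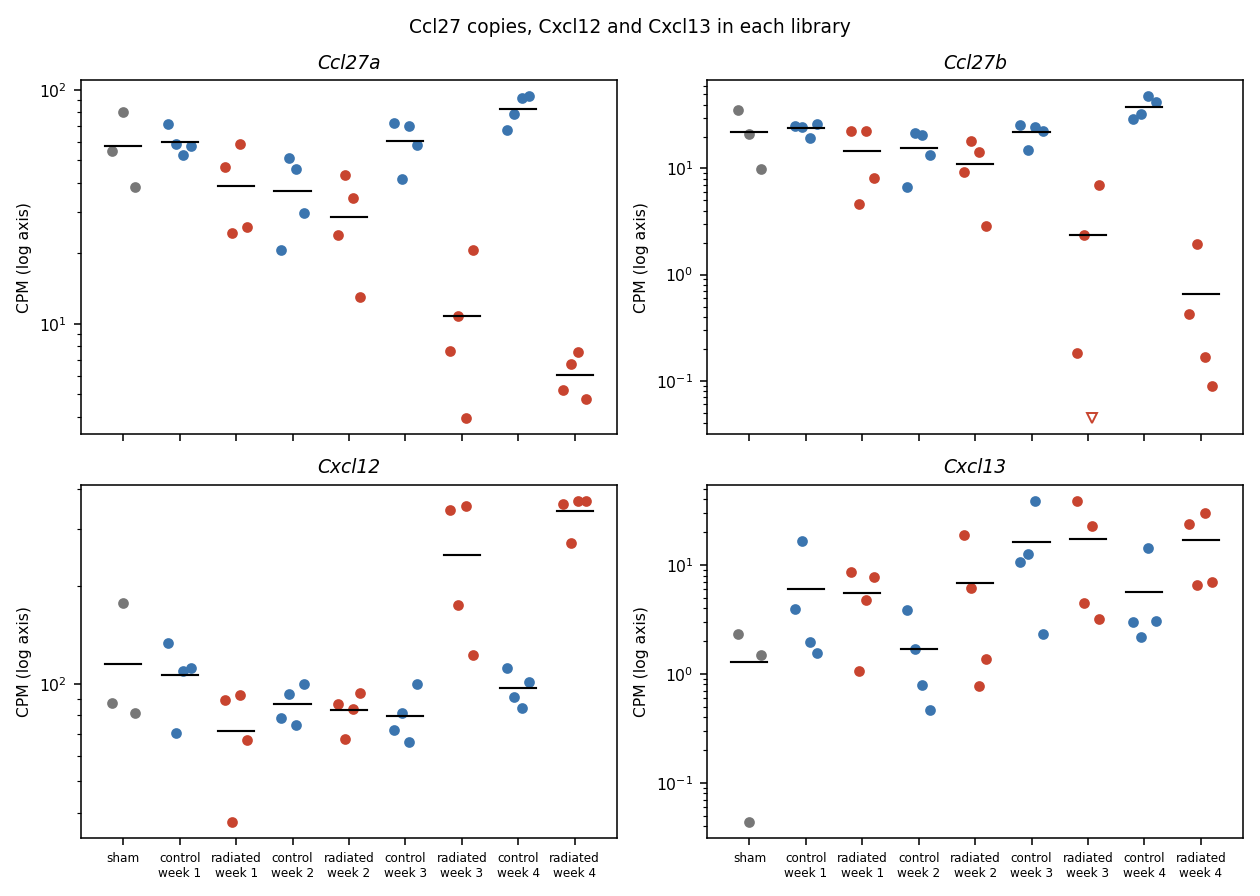
CPM (log axis) of Ccl27a, Ccl27b, Cxcl12 and Cxcl13 in each library, with a line at the group mean; grey is sham, blue control and red radiated skin, and the open triangle is the library with no Ccl27b count. Both Ccl27 copies are lower and Cxcl12 is higher in all radiated libraries of weeks 3 and 4 than in the control libraries of the same week, and Cxcl13 spreads from 3.22 to 38.5 CPM within radiated skin of week 3.

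Ligands of Ccr4 and Ccr8, receptors of skin T cells, went in different directions. Ccl8, or MCP-2, which dermal macrophages make and which binds Ccr8, had 3.32, 4.47 and 1.39 CPM in sham skin. Radiated skin had 4.27, 2.52, 4.18 and 5.02 CPM at week 1, 7.16, 1.98, 3.93 and 3.11 CPM at week 2, 13.1, 6.02, 17.7 and 6.94 CPM at week 3 and 13.7, 8.92, 13.5 and 16.1 CPM at week 4. Control skin had 4.14, 1.19, 3.63 and 1.51 CPM, then 2.66, 0.344, 0.393 and 1.04 CPM, then 2.20, 2.70, 1.91 and 5.59 CPM, then 1.27, 2.08, 0.684 and 0.809 CPM. The groups were apart at weeks 3 and 4, with log2 fold changes of 1.86 ± 0.45 (SE, adjusted p = 0.0154) and 3.45 ± 0.34 (SE, adjusted p = 3.74e-05). At week 2 it was higher in 4 of 4 pairs (adjusted p = 0.243 between groups and 0.0332 within pairs).

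Ccl22, made by dendritic cells and a ligand of Ccr4, had 2.61, 4.73 and 3.40 CPM in sham skin. Radiated skin had 3.59, 6.17, 7.49 and 14.0 CPM at week 1, 10.5, 4.89, 12.5 and 17.4 CPM at week 2, 5.75, 8.44, 4.79 and 3.45 CPM at week 3 and 2.48, 3.37, 2.64 and 2.41 CPM at week 4. Control skin had 3.44, 4.89, 6.89 and 5.04 CPM, then 4.89, 4.86, 5.42 and 4.54 CPM, then 6.66, 4.42, 6.51 and 3.08 CPM, then 8.54, 6.15, 3.46 and 4.51 CPM. In radiated skin of week 2, 3 libraries were above all control libraries, and at week 4 all radiated libraries were below them.

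For Ccl22 the log2 fold change came to 1.20 ± 0.34 (SE, adjusted p = 0.172) at week 2 and -1.04 ± 0.28 (SE, adjusted p = 0.0121) at week 4. Without radiated replicate 2 the week 2 difference was called (log2 fold change 1.45, adjusted p = 0.0321). Dendritic and Langerhans cell markers went in different directions: of 6, at week 4, Itgax, Ccr7, Flt3 and Clec9a were called higher and Cd207, the langerin of Langerhans cells, lower. Cd207 had a mean of 1.07 CPM in radiated and 6.95 CPM in control skin at week 3 and 0.624 against 4.95 CPM at week 4 (log2 fold changes -2.68 ± 0.52, SE, adjusted p = 0.00620, and -2.97 ± 0.27, SE, adjusted p = 2.16e-05). The 6 summed to 28.7 to 38.5 CPM in radiated and 16.8 to 20.0 CPM in control skin. Ccl17, the other Ccr4 ligand, had too few counts for the test in radiated against control skin at every week, and reached 2.40 CPM at most, in radiated skin of week 2.

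The interferon-induced ligands of Cxcr3, which attract activated T cells, are Cxcl9, Cxcl10 and Cxcl11. Cxcl10 had 0.751, 2.47 and 0.876 CPM in sham skin. Radiated skin had 2.05, 4.56, 3.31 and 2.01 CPM at week 1, 1.46, 0.873, 4.16 and 3.49 CPM at week 2, 2.74, 9.10, 20.6 and 4.04 CPM at week 3 and 4.99, 2.48, 22.3 and 4.10 CPM at week 4. Control skin had 1.72, 0.618, 1.91 and 0.336 CPM, then 0.998, 0.646, 0.699 and 0.782 CPM, then 0.360, 1.06, 0.604 and 0.457 CPM, then 11.3, 1.02, 0.257 and 0.539 CPM. All radiated libraries lay above the control libraries at weeks 1 and 3, and Cxcl10 was not called at week 1. Replicate 3 was the high library of radiated skin at weeks 3 and 4, and replicate 1 that of control skin at week 4.

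Cxcl10 was called at week 3 (log2 fold change 3.88 ± 0.69, SE, adjusted p = 0.00423) and not at week 4 (1.42 ± 1.08, SE, adjusted p = 0.307). Without control replicate 1 of week 4 the log2 fold change was 3.84 and the adjusted p 0.00630. Cxcl11, a polymorphic pseudogene in the annotation of this strain's genome, had 1.77, 1.43 and 2.68 CPM in sham skin. Over the 4 weeks it was at 0.818 to 3.30 CPM in radiated skin, apart from 19.9 CPM in replicate 2 of week 1, and at 0.524 to 3.02 CPM in control skin. Cxcl11 was not called at any week with all libraries in, and at week 3 it was called higher without control replicate 3 (log2 fold change 1.38, adjusted p = 0.0493, against 0.389). Cxcl9 was called higher at week 4 alone (log2 fold change 0.84 ± 0.29, SE, adjusted p = 0.0357), and this ended within pairs (adjusted p = 0.0621), with no filter on low counts (adjusted p = 0.0847), in 1 fit of all 35 libraries (adjusted p = 0.261) and without any 1 of 6 libraries, radiated replicates 1, 2 and 4 and control replicates 1, 3 and 4.

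The eotaxins Ccl11 and Ccl24, which recruit eosinophils through Ccr3, were not called against control skin at any week by edgeR on the 2 groups alone, and some alternatives called them. Ccl11 had 6.99, 10.6 and 2.94 CPM in sham skin. Radiated skin had 17.0, 9.66, 11.2 and 22.0 CPM at week 1, 27.4, 19.3, 30.8 and 23.7 CPM at week 2, 8.12, 11.3, 11.9 and 6.76 CPM at week 3 and 15.5, 13.3, 9.00 and 11.1 CPM at week 4. Control skin had 19.7, 27.0, 22.2 and 13.1 CPM, then 9.31, 11.0, 17.0 and 17.7 CPM, then 16.7, 15.5, 16.7 and 9.02 CPM, then 18.2, 14.4, 17.9 and 14.4 CPM. All radiated libraries were above the control libraries at week 2 (log2 fold change 0.88 ± 0.25, SE, adjusted p = 0.172 and, by DESeq2, 0.0296), and at weeks 3 and 4 the radiated sample was the lower one in 4 of 4 pairs. Without radiated replicate 1 of week 4, Ccl11 was called lower (adjusted p = 0.0304).

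Ccl24 had 2.87, 2.34 and 5.15 CPM in sham skin. In radiated skin it was at 7.43, 4.40, 3.57 and 3.80 CPM at week 1, 8.18, 2.50, 3.03 and 3.22 CPM at week 2, 2.60, 2.43, 1.29 and 2.76 CPM at week 3 and 2.90, 2.37, 2.22 and 3.75 CPM at week 4. In control skin it was at 5.82, 6.18, 4.88 and 3.70 CPM, then 2.90, 2.84, 3.45 and 4.80 CPM, then 7.55, 4.42, 6.46 and 2.17 CPM, then 2.65, 4.82, 5.09 and 4.16 CPM. The largest difference was that of week 3, with a log2 difference of -1.16 ± 0.40 (SE, adjusted p = 0.0580), which was called without control replicate 4 (adjusted p = 0.0229), by DESeq2 (adjusted p = 0.0195) and in 1 fit of all 35 libraries (adjusted p = 0.0143). At week 4 Ccl24 was called lower without control replicate 1 (adjusted p = 0.0311).

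Among the lymphoid and homeostatic ligands, Cxcl12 rose in every pair at weeks 3 and 4. Cxcl12, or SDF-1, is made by fibroblasts and endothelium and binds Cxcr4. It was at 87.6, 178 and 81.3 CPM in sham skin. Radiated skin had 89.4, 37.4, 92.7 and 67.2 CPM at week 1, 86.4, 67.8, 83.8 and 94.1 CPM at week 2, 345, 175, 355 and 123 CPM at week 3 and 358, 272, 368 and 368 CPM at week 4. Control skin had 134, 70.7, 109 and 112 CPM, then 78.4, 92.8, 74.7 and 100.2 CPM, then 72.2, 81.3, 66.0 and 99.6 CPM, then 112, 90.8, 84.4 and 101.4 CPM. The radiated libraries were all above the control libraries at weeks 3 and 4 and lay within or below their range before.

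For Cxcl12 the log2 fold change came to -0.56 ± 0.27 (SE, adjusted p = 0.382) at week 1, -0.06 ± 0.15 (SE, adjusted p = 0.900) at week 2, 1.68 ± 0.33 (SE, adjusted p = 0.00677) at week 3 and 1.82 ± 0.13 (SE, adjusted p = 6.43e-06) at week 4. Its receptor Cxcr4 had means of 39.9 and 46.5 CPM in radiated skin at weeks 3 and 4 against 3.85 and 3.54 CPM in control skin. Stromal markers moved too. At week 4, 4 of 5 fibroblast markers (6678 to 12860 CPM in radiated, 1350 to 2262 CPM in control skin) and 4 of 4 blood endothelium markers (372 to 484 CPM against 165 to 281 CPM) were higher. At week 3, 1 of 5 fibroblast markers was higher and 1 lower (3463 to 5333 CPM against 1326 to 3876 CPM), and 1 of 4 endothelial markers was higher (193 to 444 CPM against 172 to 209 CPM). Of all genes, 24.2% were called higher at week 4 and 13.6% at week 3. None of the 9 markers was at 0, and their part in Cxcl12 was not tested.

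Cxcl13, the B-cell attractant, varied widely among the libraries of single groups. It had 2.34, 0.0434 and 1.49 CPM in sham skin. Radiated skin had 8.58, 1.07, 4.79 and 7.73 CPM at week 1, 18.9, 6.11, 0.768 and 1.36 CPM at week 2, 38.5, 4.48, 22.7 and 3.22 CPM at week 3 and 23.6, 6.55, 30.3 and 6.96 CPM at week 4. Control skin had 3.96, 16.4, 1.96 and 1.56 CPM, then 3.90, 1.68, 0.787 and 0.469 CPM, then 10.7, 12.6, 38.9 and 2.34 CPM, then 2.97, 2.17, 14.4 and 3.04 CPM. The groups overlapped at every week, and high and low libraries stood side by side in both kinds of skin.

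Cxcl13 was not called against control skin at any week. At week 4 it was higher in 4 of 4 pairs, with a log2 difference of 1.59 ± 0.70 (SE, adjusted p = 0.0869 between groups and 0.00730 within pairs), and 2.63 (adjusted p = 0.00786) without control replicate 3. At week 3 the log2 fold change came to 0.13 ± 0.89 (SE, adjusted p = 0.932). B-cell markers were low in all groups: the 6 summed to 4.77 to 5.53 CPM in radiated and 2.66 to 4.07 CPM in control skin at week 4, where 1 of the 3 tested, Cd79b, was called higher. Cxcr5, the receptor, was called higher at weeks 3 and 4, with means of 2.70 and 2.04 CPM against 0.593 and 0.907 CPM.

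Ccl21a, the lymphatic ligand of Ccr7, has near-copies in other rows (1 more of Ccl21a, 3 of Ccl21b and 1 of Ccl21c), which reached 1.20 CPM at most. The main row, on chromosome 4, had 15.1, 19.6 and 4.74 CPM in sham skin. Radiated skin had 14.3, 4.45, 29.3 and 18.4 CPM at week 1, 12.3, 11.6, 34.4 and 14.7 CPM at week 2, 14.8, 12.8, 32.7 and 11.3 CPM at week 3 and 24.0, 16.3, 26.0 and 33.4 CPM at week 4. Control skin had 17.1, 17.7, 19.9 and 14.2 CPM, then 5.51, 3.40, 14.6 and 6.78 CPM, then 14.3, 6.38, 12.5 and 14.7 CPM, then 23.1, 17.5, 17.9 and 31.1 CPM. It was called only within pairs at week 2 (log2 fold change 1.31, adjusted p = 0.0139, against 0.284 between groups). Lymphatic endothelium markers summed to 80.1 to 135 CPM in radiated and 38.3 to 56.7 CPM in control skin at week 2, with none of the 4 at 0, and their part was not tested.

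Ccl19, the ligand of Ccr7 that fibroblastic and dendritic cells make, was called higher at week 4 (5.53 against 2.37 CPM, log2 fold change 1.23 ± 0.20, SE, adjusted p = 0.000830), and Ccr7 itself had a mean of 1.27 CPM against 0.0410 CPM. Ccl25, a ligand of Ccr9 best known from thymus and gut, was called higher at weeks 3 and 4 (13.8 against 6.76 CPM and 13.6 against 7.62 CPM). In its case the control libraries were the ones that stood apart from sham skin, which had a mean of 12.8 CPM. That difference between control and sham skin was called at week 3 and not at week 4.

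Of the epithelial and membrane-bound ligands, Cxcl14, which unstimulated epidermis makes at high levels, had 142, 241 and 116 CPM in sham skin. Radiated skin had 122, 94.9, 131 and 104 CPM at week 1, 80.0, 134, 124 and 136 CPM at week 2, 143, 199.7, 134 and 94.7 CPM at week 3 and 88.1, 128, 212 and 77.5 CPM at week 4. Control skin had 153, 175, 192 and 191 CPM, then 84.2, 118, 116 and 161 CPM, then 264, 290.0, 261 and 361 CPM, then 199, 190.5, 225 and 201 CPM. Radiated skin was below control skin without overlap at weeks 1 and 3. Cxcl14 was called lower at week 3 (log2 fold change -1.01 ± 0.22, SE, adjusted p = 0.0100). At week 4 it missed the threshold (log2 fold change -0.68 ± 0.27, SE, adjusted p = 0.0644 between groups and 0.0261 within pairs), and without radiated replicate 3 the adjusted p was 0.00111. DESeq2 and 1 fit of all 35 libraries called it as well (adjusted p = 0.0320 and 0.0360).

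Cxcl16, a membrane-bound ligand of Cxcr6 on macrophages and epithelium, had 25.7, 33.9 and 24.6 CPM in sham skin. Radiated skin had 28.3, 53.4, 45.0 and 43.5 CPM at week 1, 36.5, 48.1, 69.2 and 75.5 CPM at week 2, 63.7, 63.1, 121 and 53.2 CPM at week 3 and 65.5, 68.6, 60.2 and 80.3 CPM at week 4. Control skin had 31.4, 32.8, 46.4 and 34.5 CPM, then 20.8, 33.7, 44.2 and 36.1 CPM, then 45.5, 46.6, 46.4 and 42.9 CPM, then 33.9, 34.0, 35.8 and 31.9 CPM. From week 2 on the radiated sample was higher in 4 of 4 pairs. In log2 terms the difference was 0.76 ± 0.24 (SE, adjusted p = 0.0441) at week 3 and 1.03 ± 0.10 (SE, adjusted p = 3.13e-05) at week 4. The week 3 call ended within pairs (adjusted p = 0.0634), with no filter on low counts (adjusted p = 0.0504) and without any 1 of 6 libraries, radiated replicates 1 and 2 and control replicates 1 to 4.

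Cx3cl1, or fractalkine, and Cxcl15 were not called against control skin at any week at which they were tested. Xcl1 and Ccl20, the ligand of Ccr6, had too few counts for that test at every week. The 11 ligand rows below 1 CPM were Ccl1, Ccl26, Cxcl17, Ccl21c, the pseudogenes Ccl19-ps1 and Ccl19-ps3, and further copies of Ccl19, Ccl21b (2 rows) and Ccl27 (2 rows). Just below the limit were Ccl19-ps1 at 0.783 CPM and Ccl21c at 0.743 CPM in their highest library, and just above it Xcl1 at 1.08 CPM and Ccl21b at 1.13 CPM. In 3 of these rows no library had a count.

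**Figure D5:**
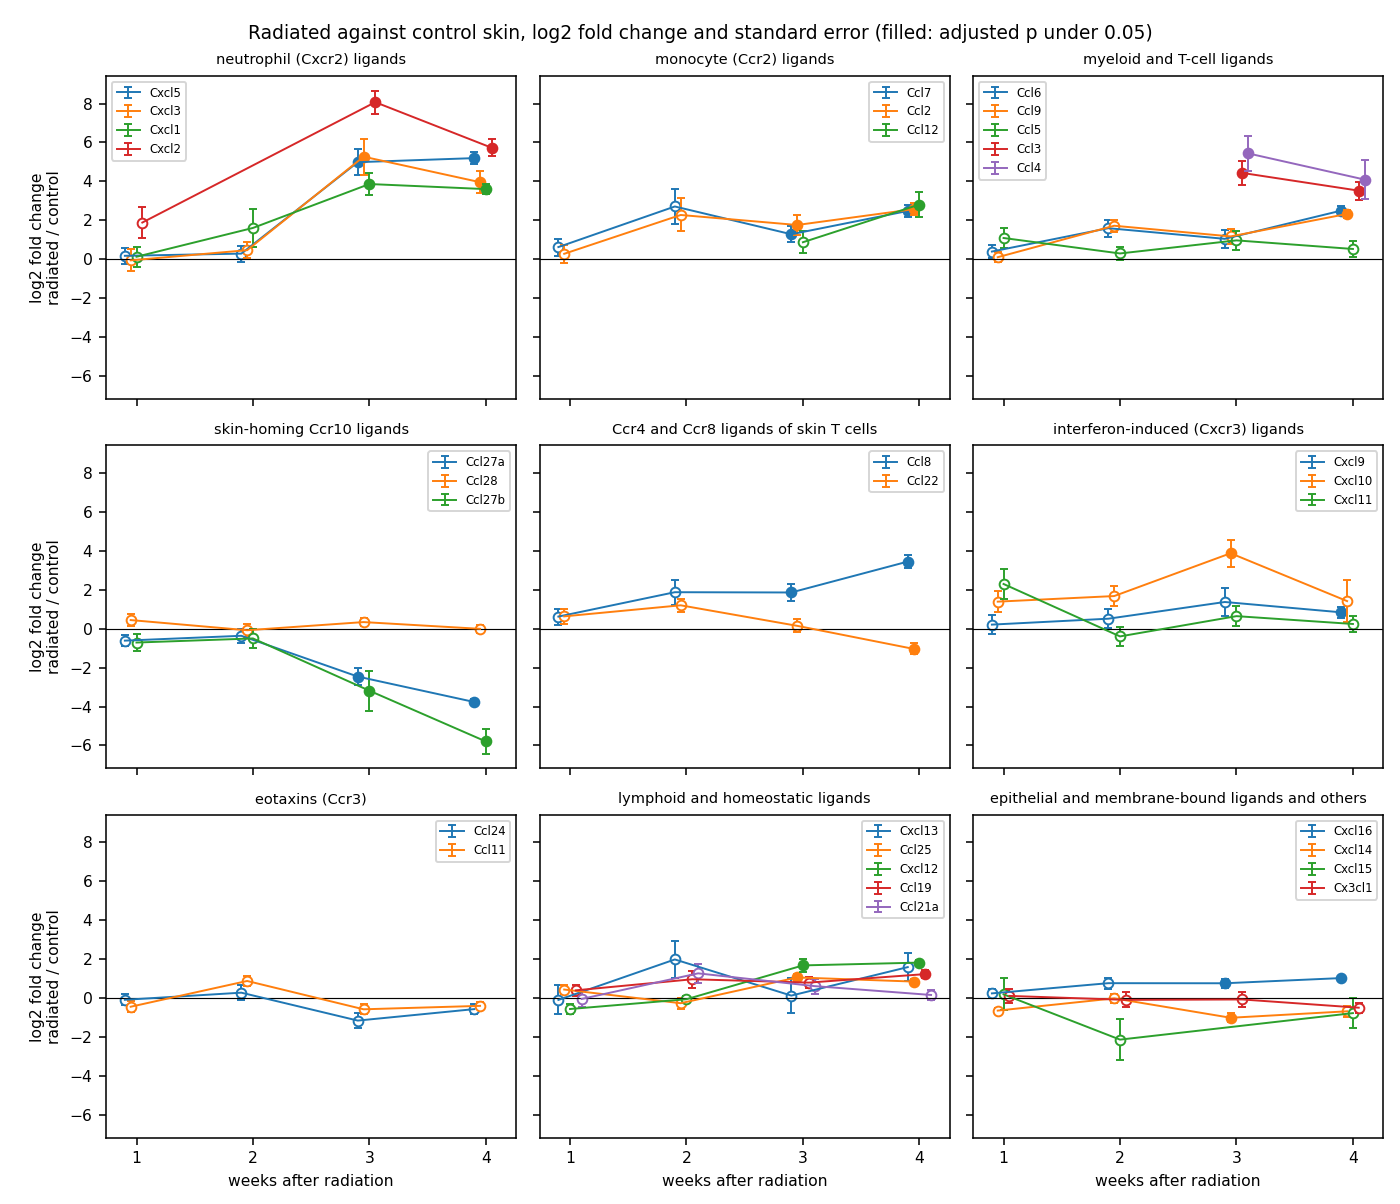
Log2 fold change of radiated against control skin with its standard error at weeks 1 to 4, for the ligands tested in each role group (edgeR, 4 against 4 libraries a week). Filled points have an adjusted p under 0.05, lines join the weeks of 1 gene and pass over a week in which it was not tested, and points are shifted sideways for legibility. The Cxcr2 ligands reach 3.60 or more at weeks 3 and 4, where Ccl27a and Ccl27b lie at -2.46 and lower.

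Change of the radiated-to-control difference over the 4 weeks was tested in 1 model of all 32 radiated and control libraries. Of 35 ligands tested, 12 were called, where 15.6% of all 19338 genes were. These were Cxcl1, Cxcl2, Cxcl3, Cxcl5, Ccl8, Ccl9, Ccl11, Ccl22, Ccl25, Cxcl12, Ccl27a and Ccl27b. Leaving out 1 replicate number from all 8 groups gave 5 to 9 calls (6 without number 1, with 7.63% of all genes called, and 5 without number 3, with 4.97%), and Cxcl5, Cxcl3, Cxcl12 and Ccl27a were called in all 4 such fits, with adjusted p of 0.0105 at most.

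From week 2 to week 3 the difference changed for 7 of the 35 ligands, where 6.9% of all genes were called, 2.81% upward and 4.1% downward. It rose for Cxcl2 by 5.75 ± 1.46 on the log2 scale (SE, adjusted p = 0.0175), for Cxcl3 by 4.80 ± 0.96 (SE, adjusted p = 0.00409), for Cxcl5 by 4.70 ± 0.72 (SE, adjusted p = 0.000699), for Cxcl12 by 1.73 ± 0.38 (SE, adjusted p = 0.00672) and for Ccl25 by 1.32 ± 0.30 (SE, adjusted p = 0.00893). It fell by 2.10 ± 0.52 for Ccl27a (SE, adjusted p = 0.0158) and by 1.46 ± 0.38 for Ccl11 (SE, adjusted p = 0.0201). The count ran from 2 to 8 without 1 replicate number (2 without number 1, 3 without number 2 and 2 without number 3, with 1.22%, 2.64% and 0.445% of all genes called), and only Cxcl5 was called in all 4 of these fits. None of the monocyte ligands was among the 7. From week 3 to week 4 no ligand was called by edgeR or DESeq2, 7 had an unadjusted p under 0.05, and 0.419% of all genes were called by edgeR and 2.2% by DESeq2.

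Against sham skin, which shares its 3 libraries among all comparisons below, radiated skin was compared in the same way. Growing hair follicle genes summed to 16.55 to 112 CPM in radiated skin of week 1 and 12.8 to 39.2 CPM at week 2. Sham skin had 2054 to 32880 CPM. Skeletal muscle genes summed to 879 to 2062 CPM at week 4, against 5822 to 12570 CPM in sham skin. All 8 monocyte and macrophage markers were called higher at weeks 3 and 4. The part of these markers in the ligands was not tested. Radiated skin of week 1 had 0 of 31 ligands called (1.75% of all genes, 12 ligands with an unadjusted p under 0.05, 2 called by DESeq2 beside 6.79% of all genes). At week 2, 3 of 30 were called, all higher (5.06% of all genes): Ccl9, Ccl11 and Ccl17. Ccl17 passed the filter only through its radiated libraries, which set its direction: it had no count in sham skin and a mean of 1.27 CPM in radiated skin, at least 26.3-fold the level of 3 counts over the sham group. The count ran from 0 to 5 when 1 library was left out, and the share of all genes called moved too. It was 0 without sham replicate 3 (0.583% of all genes), 1 without sham replicate 2 (1.05%) or without radiated replicate 3 (1.02%) or 4 (3.33%), and 5 without radiated replicate 1 (7.94%).

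At week 3, 14 of 32 ligands were higher and 1 lower than in sham skin, where 18.2% of all genes were called, 10.4% higher and 7.75% lower. The 4 Cxcr2 ligands, Ccl2, Ccl7, Ccl3, Ccl4, Ccl6, Ccl9, Ccl8, Cxcl10, Ccl19 and Cxcl16 were higher and Ccl27a was lower. Ccl6 and Ccl9, which missed the threshold against control skin of that week, had log2 fold changes of 3.24 ± 0.51 (SE, adjusted p = 0.00805) and 3.00 ± 0.47 (SE, adjusted p = 0.00771). The number of calls was 10 to 17 over the 7 fits without 1 library, where 6.07% to 22.0% of all genes were called.

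At week 4, 16 of 31 ligands were higher and 2 lower than in sham skin, where 26.7% of all genes were called, 15.2% higher and 11.5% lower. Cxcl13 was among them, with 16.9 against 1.29 CPM (log2 fold change 3.76 ± 0.95, SE, adjusted p = 0.0200, and 0.0588 without sham replicate 3). Ccl27a and Ccl27b were the 2 that were lower, by log2 fold changes of -3.21 ± 0.28 (SE, adjusted p = 0.000239) and -5.001 ± 0.85 (SE, adjusted p = 0.00356). Ccl25 was at sham level in radiated skin at both of the later weeks and not called.

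Control skin, taken to come from the radiated mice, differed from sham skin in a few ligands. Of the 5 skeletal muscle markers 4, 4 and 3 were called higher in control skin at weeks 1, 2 and 3 (22110 to 34850 CPM in sum at week 1, 5822 to 12570 CPM in sham skin). At week 1, 2 of 5 fibroblast and 2 of 4 blood endothelium markers were also higher, and at week 4 all 5 hair follicle markers were lower. Their part in the ligands was not tested. At week 1, Cx3cl1 was higher (8.47 against 4.06 CPM) and Ccl25 lower, 2 of 28 tested, where 4.92% of all genes were called. The number fell to 0 without any 1 of 5 libraries (control replicates 2, 3 and 4, sham replicates 2 and 3), where at most 0.136% of all genes were called, and was 1 without control replicate 1 (8.81%). At week 2, 0 of 28 were called (2.44% of all genes, 2 ligands with an unadjusted p under 0.05, 0 by DESeq2 beside 11.0% of all genes), and leaving out control replicate 1 gave 1, with 12.5% of all genes called. At week 4, 0 of 30 were called (3.65% of all genes, 6 with an unadjusted p under 0.05, 4 by DESeq2 beside 10.3% of all genes), and leaving out sham replicate 1 gave 1, with 9.26% of all genes called.

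At week 3, 5 of 28 ligands differed between control and sham skin, where 11.4% of all genes were called. Ccl6 (162 against 35.8 CPM), Ccl9 (66.3 against 19.0 CPM), Ccl7 (12.6 against 3.58 CPM) and Cxcl16 (45.3 against 28.1 CPM) were higher and Ccl25 (6.76 against 12.8 CPM) was lower. The count was 3 without control replicate 1 (5.35% of all genes), 2 without control replicate 2 (4.48%), 3 without control replicate 3 (4.18%) and 1 without sham replicate 3 (3.46%). Of the 8 monocyte and macrophage markers 1, Ly6c2, was called higher there, and their sums were 339 to 1020 CPM in control and 185 to 402 CPM in sham skin. Whether control skin at week 3 differed from control skin at other weeks was not tested.

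Of 19 receptors of the ligands, 16 were tested at week 3 and 17 at week 4, where 15 and 13 had enough counts at weeks 1 and 2. At week 3, 6 were higher and 1 lower, where 13.6% of all genes were called in each direction, and at week 4, 10 were higher and 2 lower, where the share was 24.2% in each direction. Among those higher at both weeks were Cxcr2, Cxcr4, Cxcr5, Ccr7 and Ccr2, the receptor of Ccl2 and Ccl7 (134 against 61.2 CPM at week 3 and 110 against 29.1 CPM at week 4). Ccr1, Ccr3, Cxcr3 and Cx3cr1 were called at week 4 and not at week 3. Ccr7 had a low control level at week 4, given above with Ccl19. It could pass the filter on low counts there only through its radiated libraries, which set its direction. Whether other receptors passed in this way was not examined. Over the 4 weeks the radiated-to-control difference changed for Ccr1, Cxcr2, Cxcr4 and Ccr4 of the 19 receptors (test of change over weeks, edgeR), where 15.6% of all genes were called. Ccr1 had 25.0 against 1.12 CPM at week 4 (log2 fold change 4.46 ± 0.36, SE, adjusted p = 1.13e-05).

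Ccr4, the receptor of Ccl22 and Ccl17, was lower at both weeks, with means of 2.80 against 10.6 CPM and 2.49 against 18.5 CPM (log2 fold changes -1.89 ± 0.46, SE, adjusted p = 0.0152, and -2.88 ± 0.22, SE, adjusted p = 9.54e-06). Ccrl2, a receptor that binds without signalling, was lower at week 4 (1.62 against 2.74 CPM). Of the 4 atypical receptors, which take up ligands, Ackr4 was lower at both weeks (8.73 against 28.1 CPM and 14.8 against 68.7 CPM), and at week 4 Ackr2 was lower and Ackr3 higher. Ackr4 binds Ccl19, Ccl21 and Ccl25.

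The platelet chemokines Pf4 and Ppbp, which belong to the family by structure and carry other symbols, were both called higher at weeks 3 and 4. Pf4 had 38.2 against 6.08 CPM at week 3 and 18.5 against 2.73 CPM at week 4. Ppbp ranged from 0.138 to 26.4 CPM within radiated skin of week 3. Of the 4 platelet markers, 2 (Itga2b and Gp1bb) were called higher at both weeks, with sums of 14.6 to 23.2 CPM in radiated and 6.51 to 10.3 CPM in control skin at week 3, and 12.0 to 20.7 CPM against 5.09 to 8.16 CPM at week 4. None of the 4 was at 0, and their part in Pf4 and Ppbp was not tested.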

How the data were processed

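Total RNA of 35 mouse skin biopsies had been extracted with a column kit and sequenced by a commercial service, and analysed with Kallisto and DESeq2, per the labels' protocols. The submitters' processing notes name Trim Galore 0.6.7, kallisto 0.46.2 and the build mm10. The transcript set and the step from transcripts to genes are not given in the sources used here. The deposited table holds estimated counts per gene, not scaled between libraries: 29.5% to 32.5% of the values of a library are not whole, and totals are 17362853 to 28487885. Estimated counts were rounded. No 2 libraries held identical values.

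Differences were tested with edgeR 4.0.16 (R 4.3.3): quasi-likelihood F test, filterByExpr, TMM scaling, and Benjamini-Hochberg adjustment over all genes tested. Each comparison was fitted on its own 2 groups, and the tests of change over weeks on all 32 radiated and control libraries. None of these main fits held the replicate number. The standard error is the log2 fold change divided by the square root of F. CPM uses TMM library sizes. The script was tested on simulated data with known changes. The alternatives were total-count scaling, DESeq2 size factors, no filter, the DESeq2 1.42.0 test, the replicate number as a block, summed gene copies, 1 fit of all libraries, and leaving out each library.

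Radiated and control samples of 1 number and week were taken as a pair from 1 mouse, since 35 samples came from 19 mice; the labels do not state it. Over 19813 genes, the deviations from the group means of such pairs had a mean correlation of 0.07, 0.17, 0.053 and -0.02 at weeks 1 to 4, and those of other pairs -0.024, -0.057, -0.017 and 0.0074. Sham samples share only numbers with the other groups. Nothing in the labels says more about how samples were replicated, so p-values measure the spread between these samples.

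The members, the role groups, the marker lists and the motif letters were chosen with earlier results of these data known. Values in every sample are given for Cxcl2, Ccl27a, Ccl27b, Cxcl13 and the 2 members of each role group with the highest mean CPM, 19 in all. Coordinates of promoters are from RefSeq's tables on GRCm38.p6. Shared stretches of 31 bases were counted in GENCODE M21 transcripts. A floor is 3 counts over a group. Intervals of counting error were not computed, since each group has replicates. Some genes of the receptor and marker lists are counted and summed with their lists but not reported here by name.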

Additional observations from a re-analysis of the deposited data

Results flagged for a closer look

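In 3 of the 152 sets of 4 libraries examined, 1 library stood apart from the other 3 on the log2 CPM scale (its gap to the nearest, divided by the range, was over Dixon's critical value). Chance marks about 1 set in 20 this way. Cxcl11 was at 0.855 CPM in control skin of week 4, replicate 3, below the others. Ccl11 was at 9.02 CPM in control skin of week 3, replicate 4, below the others. Cxcl12 was at 272.1 CPM in radiated skin of week 4, replicate 2, below the others and still above all control libraries. On linear CPM 17 sets passed, these 3 among them, and the widest gaps were those of Cxcl2 in radiated skin of week 2, replicate 3 (7.41 CPM), Cxcl10 in control skin of week 4, replicate 1 (11.3 CPM), and Cxcl13 in control skin of week 4, replicate 3 (14.4 CPM).

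For 12 ligands the radiated-to-control difference was not the same at all 4 weeks by edgeR's interaction test. Among the Cxcr2 ligands the adjusted p was 9.55e-06 for Cxcl5, 0.000455 for Cxcl3, 0.00859 for Cxcl2 and 0.0228 for Cxcl1. For the skin-homing ligands it was 0.000141 for Ccl27a and 0.00397 for Ccl27b. It was 7.29e-05 for Cxcl12, 0.00942 for Ccl25, 0.0113 for Ccl9, 0.0191 for Ccl22, 0.0195 for Ccl11 and 0.0494 for Ccl8. Without replicate number 1, the adjusted p of Cxcl2 was 0.0655.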

How the results depend on the processing

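In radiated against control skin the number of ligands called was 0 at week 1 (1 by DESeq2, 0 to 0 without 1 library) and 0 at week 2 (5 by DESeq2, 2 in 1 fit of all 35 libraries, 0 to 2 without 1 library, and 7 with the replicate number as a block, which compares within pairs). It was 16 at week 3 (12 to 17 without 1 library) and 20 at week 4 (19 to 21). The interaction gave 12 (5 to 9 without 1 replicate number), the step from week 2 to week 3 gave 7 (2 to 8) and the step to week 4 gave 0 (0 to 0). Against sham skin, radiated skin gave 0 at week 1 (1 with no filter, 2 by DESeq2, 2 in the fit of all libraries, 0 to 0 without 1 library), 3 at week 2 (5 with no filter, 10 by DESeq2, 11 in the fit of all libraries, 0 to 5 without 1 library), 15 at week 3 (10 to 17) and 18 at week 4 (15 to 18). Control skin gave 2 at week 1 (1 with total-count scaling, 5 by DESeq2, 0 with the block, 1 in the fit of all libraries, 0 to 2 without 1 library), 0 at week 2 (0 to 1), 5 at week 3 (9 by DESeq2, 1 with the block, 1 to 5 without 1 library) and 0 at week 4 (4 by DESeq2, 1 in the fit of all libraries, 0 to 1 without 1 library). In sham comparisons the block joins different mice. The share of all genes called differed between these fits too: in radiated against sham skin of week 2 it was 5.06%, 4.68% with no filter, 13.8% by DESeq2, 16.4% in the fit of all libraries and 0.583% to 7.94% without 1 library. In control against sham skin DESeq2 called 16.6% of all genes at week 1 and 20.1% at week 3, against 4.92% and 11.4%, and the block gave 0% and 2.66%. In the interaction the share was 15.6%, and 4.97% to 9.2% without 1 replicate number. The cause of these changes was not tested.

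Among the 19 ligands with values in every sample, in radiated against control skin of weeks 3 and 4, 506 of the alternative values kept their direction and side of the threshold, 31 lost the call, 18 gained it, and 9 changed sign. The 9 were fits without 1 library of log2 fold changes that were not called: Ccl22 at week 3 (-0.117 and -0.0362), Cxcl13 at week 3 (-0.641, -0.235, -0.0339 and -0.0326), Cxcl11 at week 4 (-0.0257 and -0.00488) and Ccl21a at week 4 (-0.0119). The highest values without 1 library were 1.01 for Cxcl13, 0.516 for Cxcl11 and 0.389 for Ccl21a. Ccl19 at week 3 was called by DESeq2 (adjusted p = 0.0357) and with total-count scaling (adjusted p = 0.0179), against 0.0632. Total-count scaling moved the all-gene median of the log2 fold changes from 0.08 to 0.32 at week 3, where 4054 genes were then called higher and 1270 lower. Ligands under 1 CPM are limited by depth.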
